A study of Mus musculus with 10 samples.

Results

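The transcripts of 10 members of the carboxylesterase gene family were measured in mouse liver by RNA-seq: Ces1b, Ces1c, Ces1d, Ces1e, Ces1f, Ces1g, Ces2a, Ces2c, Ces2e and Ces3a. The members were taken by gene symbol from a table of 24421 genes that holds 19 carboxylesterase genes, and the choice was made with earlier results of these data known. Livers came from 10 male wild-type C57BL/6 mice aged 21 weeks with free access to food. In the Chow group (n = 5), mice ate standard chow alone. In the TM5614 group (n = 5), the same chow carried TM5614, an orally active small molecule, at 20 mg/kg/day over 10 days. Each library is the poly(A) RNA of the liver of 1 mouse, and the design holds 1 dose, 1 duration and 1 sex. The question was how the transcripts of this enzyme family differed between livers of treated and untreated mice.

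Carboxylesterases are serine hydrolases that cut ester and amide bonds in lipids, drugs and other foreign compounds. Most of them sit in the lumen of the endoplasmic reticulum (ER), held there by a short retrieval signal at the end of the protein, and hepatocytes are one of their richest sources. The Ces1 family includes enzymes that release fatty acids from stored triacylglycerol, among them Ces1d (triacylglycerol hydrolase), Ces1f and Ces1g, as well as Ces1c, which mice, unlike humans, secrete into plasma. The Ces2 family takes drug esters and glycerides, and Ces3a is a further ER esterase of the rodent liver.

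The libraries held between 6398335 and 10874955 counts. Values are CPM, each gene's counts relative to the total of its library, scaled by trimmed-mean factors between 0.955 and 1.05. Fold changes, standard errors and p-values come from the edgeR quasi-likelihood test over the 11092 genes that passed the filter on low counts, with Benjamini-Hochberg adjustment over those genes and a threshold of 0.05. Albumin and the 5 other hepatocyte markers were high in all 10 libraries, and none of the 6 passed the test. A pair of libraries stood apart: Chow replicate 2, whose mean correlation with its own group was 0.927 against 0.965 to 0.970 for the other Chow libraries, and TM5614 replicate 2, which held 27252 counts of 7 skeletal muscle markers against 5 to 13 in the Chow libraries and 8 to 504 in the other TM5614 libraries.

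All 10 members passed the filter, and 4 of them were lower in TM5614: Ces1g, Ces1d, Ces1f and Ces2c. None was higher. Over all tested genes 2.77% were called lower and 1.73% were called higher. The estimate lay below 0 for all 10 members, with a median log2 fold change of -0.41, whereas the median over all tested genes was 0.01 and 48.5% of them had an estimate below 0. In 5 members (the 4 called and Ces1c) every TM5614 library lay below every Chow library, a pattern held by 4.87% of all tested genes. By family, 3 of 6 Ces1 members, 1 of 3 Ces2 members and 0 of 1 Ces3 members were called. In bulk liver, fewer cells of a type and less RNA per cell cannot be told apart. How many members were called depended on the libraries. The same 4 were called when Chow replicate 2 was left out, and 4, with Ces2e in place of Ces1f, when Chow replicate 4 was. Leaving out Chow replicate 1 gave 3, and leaving out Chow replicate 5 or TM5614 replicate 1, 2, 4 or 5 gave 2 (Ces1g and Ces1d). When Chow replicate 3 or TM5614 replicate 3 was left out, 1 remained, Ces1g. The estimates of all 10 members stayed below 0 in every fit, but some came near it. Without Chow replicate 2 the log2 fold change was -0.0489 for Ces2a and -0.0921 for Ces3a.

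**Figure D1:**
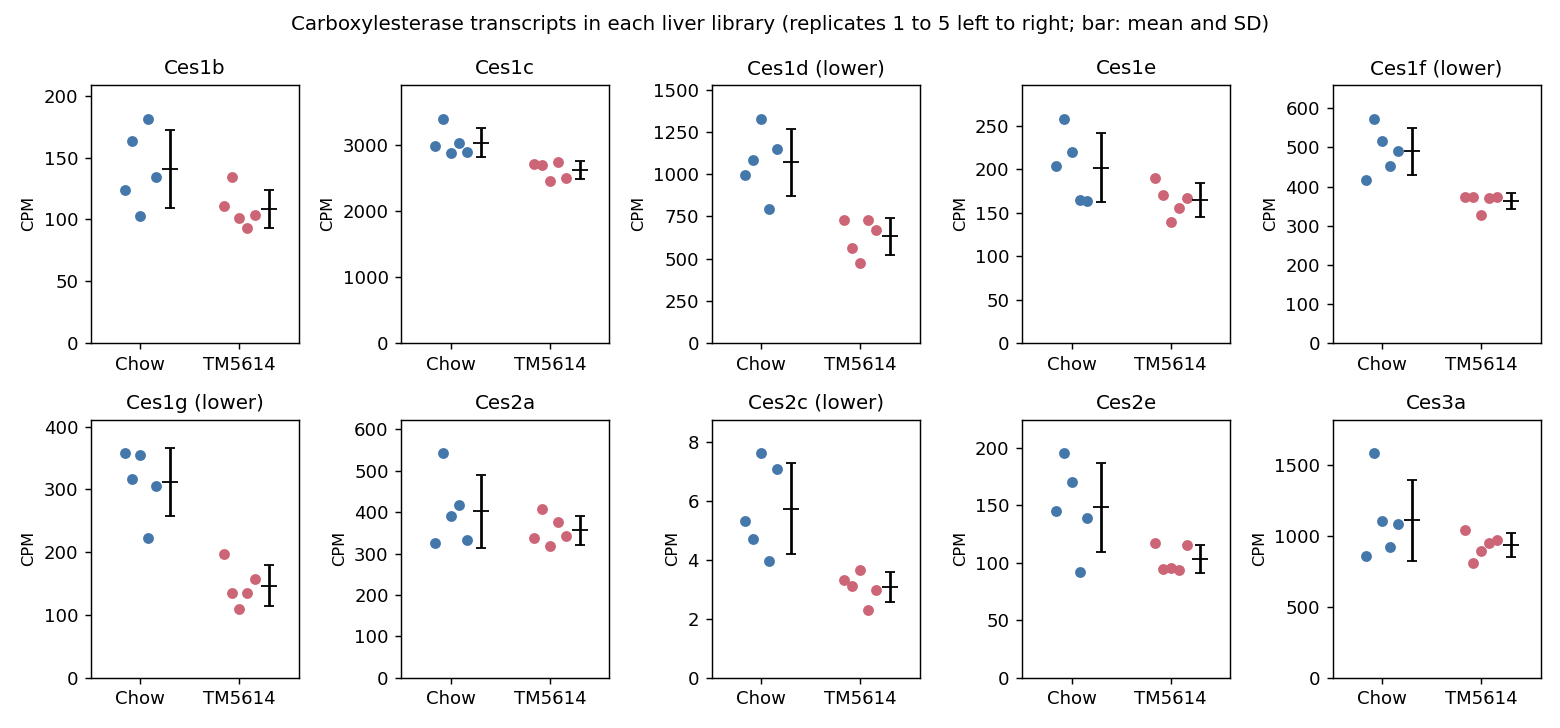
CPM of each carboxylesterase in every liver library (points, replicates 1 to 5 from left to right; Chow blue, TM5614 red) with the group mean and SD beside them (n = 5). The TM5614 points lie wholly below the Chow points for Ces1c, Ces1d, Ces1f, Ces1g and Ces2c, while those of the other 5 members overlap.

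The members lie in 2 blocks on chromosome 8 (GENCODE annotation of GRCm38, the assembly that mm10 names). The Ces1 block runs from Ces1b at chr8:93056728-93080017 through Ces1c, Ces1d, Ces1e and Ces1f to Ces1g at chr8:93302369-93337308, all on the minus strand, so that the start of Ces1g lies 257.3 kb from that of Ces1b. The Ces2 and Ces3 block begins 11654 kb from the start of Ces1b on the plus strand and runs from Ces2a at chr8:104734003-104741634 through Ces2c at chr8:104847068-104854483 and Ces2e to Ces3a at chr8:105048601-105058413. Each coding sequence is 1665 to 1716 bases long. Identity between pairs of coding sequences ranged from 55.9% to 88.7%, and Ces1b with Ces1c was the closest pair, followed by Ces2c with Ces2e at 83.6%. Because copies this close can share reads, the share of 75-base windows (the read length) of each member's transcripts that also occur unchanged in another gene was counted. That share was 0% for Ces1d, Ces1f and Ces1g, 0.334% for Ces2e, 0.96% for Ces1e, 4.5% for Ces1b, 5.08% for Ces1c, 11.4% for Ces2a, 15.1% for Ces3a and 22.1% for Ces2c. Windows within 3 mismatches of another carboxylesterase transcript, counted over 1 transcript per member, were more frequent, at 60% for Ces3a, 56.8% for Ces2c, 35.6% for Ces1c, 30.2% for Ces1b and 4.2% to 10.4% for the other 6. The values of Ces2c are therefore the least certain of the 4 called, and its windows are shared with Ces2b, the pseudogene Ces2d-ps and 2 predicted genes, while those of Ces3a are shared with Ces3b.

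The catalytic centre shows how alike these genes are and where they part. Each of the 10 coding sequences holds 1 copy of the codons for Gly-x-Ser-x-Gly, the serine hydrolase motif whose serine attacks the ester bond. The windows of 75 coding bases around it (GENCODE transcripts, coding strand, 5′ to 3′, motif codons in capitals) are given for the 4 members that were lower and for 4 relatives that did not pass.
Ces1d: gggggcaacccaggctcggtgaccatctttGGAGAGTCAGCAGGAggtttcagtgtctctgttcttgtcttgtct
Ces1f: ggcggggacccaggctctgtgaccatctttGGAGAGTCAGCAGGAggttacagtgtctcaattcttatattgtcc
Ces1g: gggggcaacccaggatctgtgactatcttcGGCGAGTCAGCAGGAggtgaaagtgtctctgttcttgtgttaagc
Ces1e: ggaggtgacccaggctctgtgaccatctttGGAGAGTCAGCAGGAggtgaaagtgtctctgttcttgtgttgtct
Ces2c: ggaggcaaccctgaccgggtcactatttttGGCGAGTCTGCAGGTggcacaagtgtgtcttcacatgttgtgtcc
Ces2e: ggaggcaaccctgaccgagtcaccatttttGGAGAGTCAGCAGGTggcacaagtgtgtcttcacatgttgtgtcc
Ces1b: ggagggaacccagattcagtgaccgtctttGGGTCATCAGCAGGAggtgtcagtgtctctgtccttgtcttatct
Ces3a: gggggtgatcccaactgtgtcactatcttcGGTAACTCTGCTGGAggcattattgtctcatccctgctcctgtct
Ces2c and Ces2e, of which the first passed the test and the second did not, differ at 4 of the 75 bases. Ces1d is nearest to Ces1e among the members, with 8 differing bases, and Ces3a stands furthest from the rest, with 27 differing bases to its nearest member, Ces1d. The second codon of the motif is GAG, for glutamate, in 7 members, whereas it is TCA in Ces1b, GTC in Ces2a and AAC in Ces3a. At the end of the coding sequence, 7 members (Ces1d, Ces1e, Ces1f, Ces1g, Ces2a, Ces2c and Ces2e) carry codons for His-x-Glu-Leu, the form of the ER retrieval signal known from this family. The final 12 coding bases are catgttgaactg in Ces1g and catgttgagctc in Ces1d. The 3 others do not carry these codons, and the secreted Ces1c ends in acagaacacaaa. All 4 members called lower are among the 7 with the retrieval codons, and so are Ces1e, Ces2a and Ces2e, which did not pass.

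Levels between genes were compared per length, as the authors' FPKM. Ces1c was the highest member in every library, at 1632 ± 115 FPKM in Chow (SD, n = 5) and 1406 ± 70.0 FPKM in TM5614, and its Chow level ranked 43 among all tested genes. Ces1d followed in Chow at 538 ± 100 FPKM and Ces3a at 534 ± 137 FPKM, and the libraries of these neighbours in the order overlapped. Ces1f at 253 ± 31.1 FPKM and Ces2a at 202 ± 43.9 FPKM overlapped each other and lay below all libraries of the first 3. Next came Ces1g at 134 ± 23.9, Ces1e at 96.4 ± 19.3, Ces1b at 70.9 ± 15.7 and Ces2e at 54.4 ± 14.2 FPKM, below every library of Ces2a, and each of them overlapped the next in range. The lowest member was Ces2c, at 2.88 ± 0.784 FPKM, with 20 to 77 counts in a library. In TM5614 the order of the means differed at 2 places: Ces3a, at 449 ± 44.3 FPKM, stood above Ces1d, at 317 ± 57.1 FPKM, in every library, and Ces1e, at 78.3 ± 8.98 FPKM, had a higher mean than Ces1g, at 63.2 ± 14.4 FPKM.

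**Figure D2:**
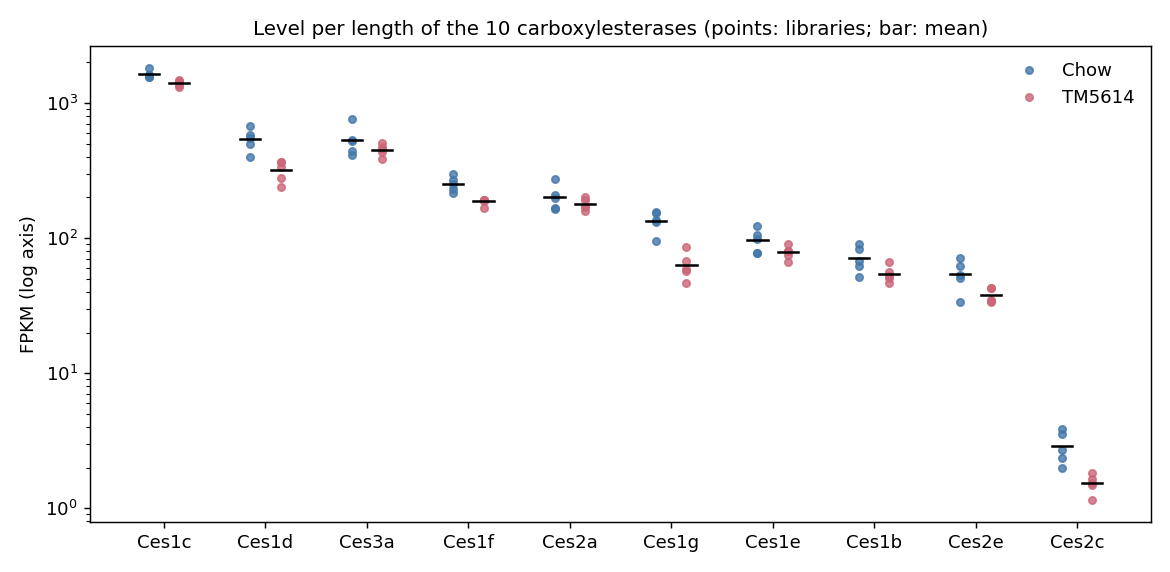
FPKM (log axis) of the 10 carboxylesterases in each library, in the order of the Chow means (Chow blue, TM5614 red, black bar the mean of 5 libraries). Ces1c lies at or above 1319 FPKM in all libraries, Ces2c at or below 3.84 FPKM, and Ces1d lies below Ces3a in every TM5614 library.

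Together the 10 members took 0.678 ± 0.0631% of the counts in Chow (range 0.619% to 0.774%) and 0.550 ± 0.0267% in TM5614 (range 0.507% to 0.578%), and the ranges did not overlap. Counting error is small beside this spread, since the 95% Wilson interval of the lowest Chow library ran from 0.613% to 0.625%. Summed CPM of the Ces1 members ranged from 4848 to 5799 in Chow and from 3604 to 4313 in TM5614, without overlap. Ces1c, which did not pass the test, made the largest part of these sums, at 3037 ± 214 CPM in Chow and 2623 ± 133 CPM in TM5614. The sums of the Ces2 members overlapped, at 476 to 742 in Chow and 417 to 504 in TM5614. Those of Ces3a, the single Ces3 member, overlapped as well.

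Ces1g showed the largest fold change of the members. It encodes a lipid-linked ER esterase of the liver that hydrolyses triacylglycerol and whose loss in mice is known to disturb lipid handling. In Chow its CPM was 357, 316, 355, 223 and 305 in replicates 1 to 5. In TM5614 it was 198, 135, 109, 135 and 157 CPM. Every treated liver lay below every untreated one, and the nearest pair were Chow replicate 4 and TM5614 replicate 1. The mean fell from 311 ± 54.5 to 147 ± 33.2 CPM (SD, n = 5), a log2 fold change of -1.09 ± 0.17 (SE, 95% interval -1.46 to -0.71, edgeR adjusted p = 0.00411). The call held in all 25 alternative fits, with estimates between -1.22 and -0.99.

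Ces1d, the triacylglycerol hydrolase that supplies fatty acids from stored fat for very-low-density lipoprotein (VLDL) assembly, fell as well. Its CPM in Chow was 993, 1086, 1330, 795 and 1147 in replicates 1 to 5. In TM5614 it was 727, 565, 472, 727 and 668 CPM. The groups did not overlap, with Chow replicate 4 the lowest untreated liver and TM5614 replicate 3 the lowest of all. The log2 fold change was -0.76 ± 0.16 (95% interval -1.11 to -0.41, edgeR adjusted p = 0.0189), from 1070 ± 197 to 632 ± 111 CPM. It remained below the threshold in 21 of 25 alternatives, and the 4 misses included the fits without Chow replicate 3 (-0.67, edgeR adjusted p = 0.0545), without TM5614 replicate 3 (-0.67, edgeR adjusted p = 0.0532) and by limma on log2(FPKM + 1) with no filter (-0.76, adjusted p = 0.0512).

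Ces1f, a second triacylglycerol hydrolase of the hepatocyte, changed less but with little spread. Its CPM was 417, 574, 517, 452 and 490 in Chow replicates 1 to 5. It was 373, 372, 326, 370 and 372 in the TM5614 replicates. All treated livers lay below the untreated ones, and 4 of the 5 treated values fell within 370 to 373 CPM while TM5614 replicate 3 lay below them. The log2 fold change was -0.43 ± 0.11 (95% interval -0.67 to -0.20, edgeR adjusted p = 0.0410). This call sits close to the threshold: it held in 13 of 25 alternatives, and in 2 of the 10 fits that each left out 1 library (those without Chow replicate 1 or 2), where the adjusted p ranged from 0.0135 to 0.126.

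Ces2c, a glyceride and drug esterase of liver and intestine, was the fourth member called. Its CPM was 5.34, 4.73, 7.62, 3.96 and 7.08 in Chow replicates 1 to 5, from 25 to 77 counts. In TM5614 it was 3.30, 3.11, 3.67, 2.29 and 2.98 CPM, from 20 to 32 counts. The groups did not overlap, but the highest treated and the lowest untreated liver lay close together. The log2 fold change was -0.91 ± 0.22 (95% interval -1.39 to -0.44, edgeR adjusted p = 0.0358). The call held in 14 of 25 alternatives and in 2 of 10 fits that left out 1 library (those without Chow replicate 2 or 4), with adjusted p from 0.0152 to 0.103, and at this depth it rests on few reads, a part of which may belong to near-identical copies.

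The other Ces2 members were better covered and did not pass. Ces2e ranged from 92.1 to 195 CPM in Chow, with a median of 145 CPM, and from 93.4 to 118 CPM in TM5614. Its treated values lay within the lower part of the untreated range, since Chow replicate 4 was the lowest of all. The log2 fold change was -0.52 ± 0.18 (95% interval -0.91 to -0.14, edgeR adjusted p = 0.122), and without Chow replicate 4 it was -0.66 (edgeR adjusted p = 0.0276). Ces2a ranged from 326 to 542 CPM in Chow and from 317 to 407 CPM in TM5614, with a log2 fold change of -0.17 ± 0.15 (95% interval -0.49 to 0.14, edgeR adjusted p = 0.518). These groups overlapped almost wholly apart from Chow replicate 2, which was the highest.

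Ces1c, the plasma carboxylesterase and highest member, did not pass although its groups were apart. Its CPM was 2987, 3401, 2876, 3031 and 2889 in Chow replicates 1 to 5. In TM5614 it was 2714, 2697, 2457, 2746 and 2503 CPM. No treated liver reached the lowest untreated one, and the difference was small, at -0.21 ± 0.09 on the log2 scale (95% interval -0.41 to -0.01, edgeR adjusted p = 0.224, DESeq2 adjusted p = 0.0448). Its closest relative Ces1b, whose product is less studied, ranged from 103 to 182 CPM in Chow and from 92.9 to 134 CPM in TM5614, with a log2 fold change of -0.38 ± 0.16 (edgeR adjusted p = 0.211).

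Ces1e is known as egasyn, the esterase that anchors beta-glucuronidase (Gusb) in the ER. It ranged from 163 to 259 CPM in Chow and from 139 to 191 CPM in TM5614, and these ranges overlapped (log2 fold change -0.30 ± 0.14, edgeR adjusted p = 0.273). Its partner Gusb stood at 35.3 ± 3.21 CPM in Chow and 36.4 ± 2.90 CPM in TM5614 (log2 fold change 0.04, edgeR adjusted p = 0.842, and the sign turned without Chow replicate 1). Of the receptors that return proteins with the retrieval signal to the ER, Kdelr1 and Kdelr2 did not pass and Kdelr3 had too few counts for a test. Ces3a ranged from 853 to 1579 CPM in Chow and from 810 to 1041 CPM in TM5614, again with Chow replicate 2 the highest (log2 fold change -0.25 ± 0.16, edgeR adjusted p = 0.396).

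**Figure D3:**
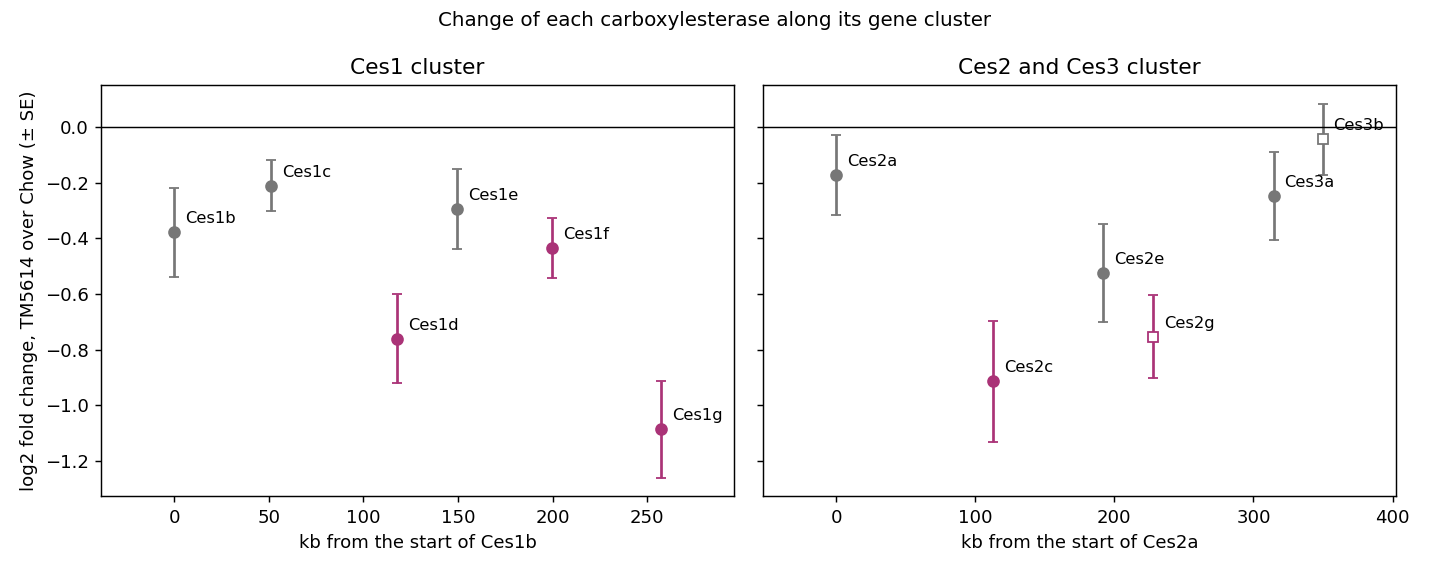
log2 fold change of TM5614 over Chow (± SE) against the distance of each gene's start from that of Ces1b or Ces2a, in kb; filled circles are the 10 members, open squares are Ces2g and Ces3b, and red marks an edgeR adjusted p under 0.05. Ces1d (-0.76) lies between Ces1c (-0.21) and Ces1e (-0.30), which did not pass, and Ces1f (-0.43) and Ces1g (-1.09), both called, lie next to each other.

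Members that follow each other in a block did not share 1 fold change by point estimate, so the ratio of the counts of each such pair was formed within every library, which removes the scaling of the library. The Ces1 pairs adjoin, whereas other carboxylesterase genes lie between the members of the Ces2 and Ces3 pairs (Ces2b, Ces2d-ps, and Ces2f, Ces2g and Ces2h). This comparison of 8 pairs was chosen after the values were seen. Ces1g over Ces1f was 0.642 ± 0.140 in Chow and 0.403 ± 0.0779 in TM5614 (log2 difference -0.67, exact permutation p = 0.0159, adjusted over the 8 pairs 0.0636). Ces1e over Ces1d was 0.192 ± 0.0379 in Chow and 0.265 ± 0.0359 in TM5614 (log2 difference 0.48, exact permutation p = 0.0159, adjusted 0.0636). Ces1d over Ces1c was 0.355 ± 0.0770 in Chow and 0.240 ± 0.0365 in TM5614 (log2 difference -0.55, exact permutation p = 0.0317, adjusted 0.0845). None of the 8 two-sided tests passed after adjustment, in a design whose smallest possible p is 0.00794, and the ranges of the groups overlapped for every pair. The unequal fold changes along the blocks are therefore not shown to differ between these pairs. The remaining 5 pairs had adjusted values from 0.143 to 0.357, with Ces2c over Ces2a at -0.73 and Ces2e over Ces2c at 0.39 on the log2 scale.

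**Figure D4:**
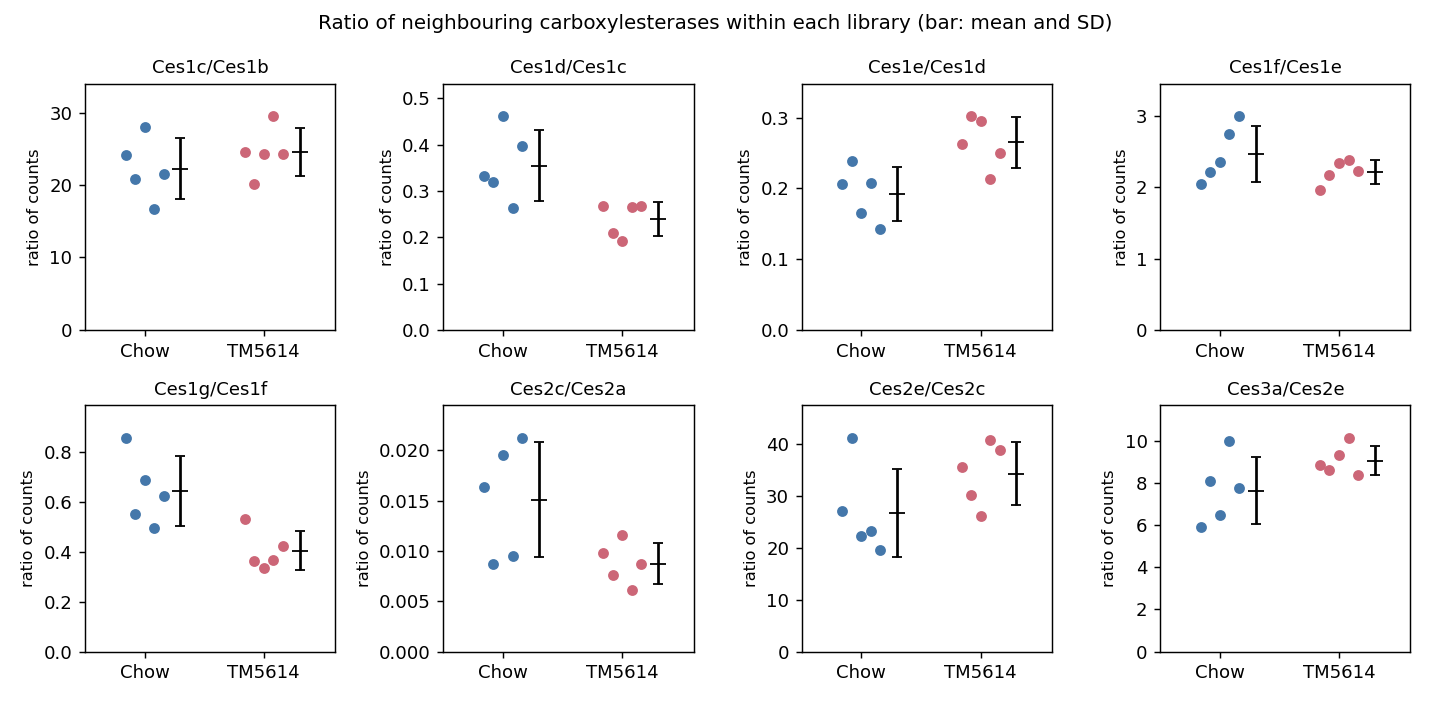
Ratio of the counts of members that follow each other in a block, in each library (points; Chow blue, TM5614 red; bar the mean and SD of 5 libraries). Ces1g/Ces1f and Ces1d/Ces1c centre lower and Ces1e/Ces1d centres higher in TM5614, and in all 8 pairs the groups overlap.

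Spread between mice was unequal among members. The coefficient of variation in Chow ran from 7.04% for Ces1c to 27.1% for Ces2c, and in TM5614 from 5.07% for Ces1c to 22.6% for Ces1g. It was smaller in TM5614 for 9 of 10 members, as it was for 77.1% of all tested genes. The exception was Ces1g, at 17.5% in Chow. In the Chow group, replicate 2 was the highest library for 6 members (Ces1c, Ces1e, Ces1f, Ces2a, Ces2e and Ces3a), and replicate 4, the shallowest library, was the lowest for 4 (Ces1d, Ces1g, Ces2c and Ces2e). In TM5614, replicate 3 was the lowest library for 6 members. Deviations of each library were taken from the median of each gene over the 10 libraries of both groups. Gene GC content and length accounted for 46.3% of the deviation of Chow replicate 2 and for 11.7% of that of TM5614 replicate 3. In the other libraries they accounted for 0.812% to 7.77%. With an offset that removes that trend, 4 members were called, as in the fit without it, and the members' median was -0.47.

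Promoter sequence was available from RefSeq (GRCm38.p6) for 7 members, in 8 promoters. Ces1d, Ces1f and Ces3a had none there and were not searched. In the 250 bases before each start, 10 named motifs were searched on both strands. The D-box (TTANGTAA), the site of the PAR-bZIP factors Dbp, Tef and Hlf, matched in 4 of the 8, those of Ces1b, Ces1c, Ces1e and Ces1g, and in 2.06% of all 32851 promoters. The first of the 2 Ces1b promoters holds it, and the promoters of Ces1b and Ces1c are near copies of each other. The Ces1g promoter is shown because Ces1g fell most, that of Ces1e because its match stands close to the start although it did not pass, and that of Ces2c because it fell and held none of the 10 motifs. Each is written 5′ to 3′ on the gene's strand up to the first start annotated by GENCODE, with D-box matches in capitals, and the RefSeq start of Ces1g lies 99 bases further into the gene.
Ces1g, chr8:93337309-93337459, minus strand: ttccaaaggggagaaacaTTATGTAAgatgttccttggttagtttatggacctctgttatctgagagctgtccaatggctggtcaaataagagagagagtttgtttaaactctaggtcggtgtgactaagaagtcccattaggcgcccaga
Ces1e, chr8:93229620-93229869, minus strand: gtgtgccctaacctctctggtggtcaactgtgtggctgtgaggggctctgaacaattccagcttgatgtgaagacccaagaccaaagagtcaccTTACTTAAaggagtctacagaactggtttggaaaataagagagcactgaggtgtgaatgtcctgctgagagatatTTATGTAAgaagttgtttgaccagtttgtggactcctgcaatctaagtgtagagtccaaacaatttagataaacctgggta
Ces2c, chr8:104846818-104847067, plus strand: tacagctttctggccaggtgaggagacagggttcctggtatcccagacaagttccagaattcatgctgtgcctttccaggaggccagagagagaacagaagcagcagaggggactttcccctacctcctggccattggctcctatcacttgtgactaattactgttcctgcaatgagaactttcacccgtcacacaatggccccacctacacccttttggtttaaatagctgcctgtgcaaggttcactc
The match begins 133 bases before the GENCODE start in Ces1g and 81 bases before it in Ces1e, where a further match on the other strand, whose letters read TTACTTAA on the gene's strand, begins at 156 bases. The C/EBP motif (TTGCNNAA) matched in 5 of the 8 promoters (both Ces1b promoters, Ces1c, Ces2a and Ces2e) and in 9.56% of all. The nuclear receptor half-site (AGGTCA) matched only in Ces2a of the 8, and in 14% of all promoters. Of the other motifs, none matched in the 8: the E-box (CACGTG, 6.02% of all promoters), the SRE (TCACNCCAC, 1.05%), HNF4 (CAAAGTCCA, 0.384%), DR4 (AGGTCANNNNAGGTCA, 0.0152%), HNF1 (GTTAATNATTAAC, 0.00913%), DR3 (AGGTCANNNAGGTCA, 0.00609%) and ER6 (TGACCTNNNNNNAGGTCA, 0.00304%). No 2 matches overlapped, a match describes letters only, and no binding was measured here. Members with a D-box match (Ces1b, Ces1c, Ces1e and Ces1g) included 1 that passed the test and 3 that did not. Ces1d and Ces1f, which also passed, had no promoter sequence to search, so this split leaves them out.

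Some of the factors that read these motifs were among a list of 19 receptors and factors of liver metabolism, which does not cover every motif searched. Of these 19, 4 were lower and 0 higher (median log2 fold change -0.30), where 2.77% of all tested genes were lower and 1.73% higher. DESeq2 called 7 of the list and 907 of 11117 tested genes, and limma-voom 7 of the list and 1386 of 11092. The C/EBP genes Cebpa (-0.29, edgeR adjusted p = 0.310) and Cebpb (-0.16, edgeR adjusted p = 0.637), named after their values were seen, did not pass. Dbp, a clock output factor, was at 179 ± 57.9 CPM in Chow and 45.1 ± 16.4 CPM in TM5614 (log2 fold change -1.99 ± 0.27, edgeR adjusted p = 0.00179). Tef, of the same family, went from 218 ± 31.7 to 117 ± 25.3 CPM (-0.90 ± 0.16, edgeR adjusted p = 0.00733). Their relative Hlf, named after its value was seen, did not pass (-0.51 ± 0.16, edgeR adjusted p = 0.10). The other 2 lower genes were Srebf1, the driver of fatty acid synthesis genes (-1.84 ± 0.19, edgeR adjusted p = 0.000402), and Rxra, the shared partner of many nuclear receptors (-0.38 ± 0.09, edgeR adjusted p = 0.0417). The part of these factors in the change of the carboxylesterases was not tested.

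The receptors known to switch on several Ces genes in response to foreign compounds did not pass. Nr1i3 (CAR) stood at 201 ± 56.6 CPM in Chow and 126 ± 31.4 CPM in TM5614 (log2 fold change -0.67 ± 0.22, edgeR adjusted p = 0.113), and Nr1i2 (PXR) at 95.7 ± 8.39 and 77.0 ± 6.36 CPM (-0.31 ± 0.10, edgeR adjusted p = 0.114). By DESeq2 both passed, with adjusted p = 0.0483 for Nr1i3 and 0.0271 for Nr1i2. Ppara, the fatty acid receptor, was at 564 ± 79.4 and 553 ± 86.4 CPM (-0.03 ± 0.14, edgeR adjusted p = 0.922, with a sign that turned when libraries were scaled by totals alone and without Chow replicate 3 or 5 or TM5614 replicate 2). Of 29 tested genes of a list of known CAR and PXR targets, 7 were lower and 0 higher, with a median log2 fold change of -0.41. The 6 of smallest adjusted p were Cyp2a5 (-1.60, edgeR adjusted p = 0.00153), Cyp2a4 (-2.22, 0.0111), Gstm3 (-1.93, 0.0122), Cyp2c55 (-1.78, 0.0132), Gstm1 (-0.79, 0.0304) and Cyp2c29 (-0.80, 0.0355), enzymes of drug and steroid oxidation or glutathione conjugation. Cyp2a4 and Cyp2a5 are near-identical copies, so their single values are uncertain. The list's count of called genes was 4 without Chow replicate 1 or 3 or TM5614 replicate 1, 3 or 4, and 12 without Chow replicate 2.

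Of the 9 further carboxylesterase genes in the table, 2 had enough counts for the test. Ces2g, a relative of Ces2a, ranged from 23.4 to 40.8 CPM in Chow and from 18.6 to 24.3 CPM in TM5614, where only Chow replicate 4 reached the treated range, and it was lower (-0.75 ± 0.15, edgeR adjusted p = 0.0137, and 0.0516 without TM5614 replicate 3). Ces3b, the near copy of Ces3a, stood at 183 ± 25.0 and 177 ± 23.4 CPM (-0.04 ± 0.13, edgeR adjusted p = 0.865, with a sign that turned when libraries were scaled by totals alone, under limma-voom and without Chow replicate 3 or TM5614 replicate 2). The others were at or near the floor over all 10 libraries: Ces4a with 48 counts, Ces1a with 25, Ces2d-ps with 9, Ces2h with 8, Ces2b with 7, Ces2f with 2 and Ces5a with 0. The reads shared by Ces2c with Ces2b and Ces2d-ps thus came with few counts at those genes, but the sources used here do not give how reads with several matches were counted.

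Other hydrolases of the liver act on some of the same lipids and drugs. Of 23 tested genes of a list of other ester, lipid and epoxide hydrolases, 0 were lower and 1 was higher, and the median log2 fold change was 0.01. The higher gene was Ephx2, the soluble epoxide hydrolase, at 1153 ± 98.9 CPM in Chow and 1850 ± 295 CPM in TM5614 (0.68 ± 0.13, edgeR adjusted p = 0.00980). Whether this list and the carboxylesterases differ was not tested as sets. By limma-voom 4 genes of the list passed, in a fit that called 1386 of 11092 tested genes. By edgeR without Chow replicate 2, 2 passed, in a fit that called 1031 of 11162.

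Genes that store triacylglycerol or load it into VLDL moved in both directions. Of 11 tested, 3 were higher and 2 lower, where 1.73% of all tested genes were higher and 2.77% lower. Cidec, a lipid droplet fusion protein, rose from 4.99 ± 1.30 to 27.1 ± 8.14 CPM (log2 fold change 2.43 ± 0.24, edgeR adjusted p = 0.000340). The lipid droplet coat genes Plin5 (1.32 ± 0.14, edgeR adjusted p = 0.000402) and Plin2 (1.07 ± 0.17, edgeR adjusted p = 0.00411) rose as well. Dgat2, which makes triacylglycerol (-0.77 ± 0.13, edgeR adjusted p = 0.00476), and Tm6sf2, a factor of VLDL lipidation (-0.46 ± 0.12, edgeR adjusted p = 0.0443), were lower. Apob and Mttp, the core of VLDL assembly, did not pass, at 0.20 and 0.46 on the log2 scale. The droplet coat genes thus rose where 3 triacylglycerol hydrolases of the Ces1 family fell, and no relation between them was tested.

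Markers of other cells that the tissue could hold were read beside these results. Intestinal epithelium, another rich source of Ces2 genes, gave 0 counts of Cdx1, Cdx2 and Sis in all libraries. Vil1 (10 counts in Chow and 7 in TM5614) and Krt20 (1 and 1) had too few counts for a test. Lgals4, at 1.69 CPM in Chow and 2.23 CPM in TM5614, did not pass (log2 fold change 0.40, edgeR adjusted p = 0.512). The intestinal list was summed at 60.3 to 80.8 CPM in Chow and 132 to 173 CPM in TM5614. That rise came from Fabp2, a fatty acid binding protein that liver also expresses (log2 fold change 1.03, edgeR adjusted p = 0.000676), and of the 2 genes of the list that could be tested 1 passed. None of the 9 Kupffer cell, 7 liver endothelium, 7 stellate cell and 3 cholangiocyte markers tested passed. The estimates of all 9 Kupffer cell markers lay below 0 (median log2 fold change -0.37), as did those of the members, and none of the 7 stellate cell estimates did. The stellate cell marker Des had a wide spread, at 2.15 to 258 CPM in TM5614 and 1.47 to 4.63 CPM in Chow. The part of these cell types in the change of the carboxylesterases was not tested. Kupffer cell markers were summed at 74.2 to 237 CPM in Chow and 76.9 to 162 CPM in TM5614. All 4 globin genes of the erythroid list are listed at 0 in every library. Summed skeletal muscle markers reached 3536 CPM in TM5614 replicate 2, and without that library 2 members, Ces1g and Ces1d, were called. The adipocyte list was summed at 0.317 to 9.84 CPM in Chow and 0.800 to 20.1 CPM in TM5614. The exocrine pancreas list reached at most 1.35 CPM and the lymphocyte list at most 5.05 CPM in any library.

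Hepatocytes differ across the liver lobule, and several Ces genes are known to be zoned, so zonation markers were counted too. Of 10 pericentral markers 1 was higher (Axin2, 0.90, edgeR adjusted p = 0.0304) and 2 were lower (Cyp1a2, -0.66, edgeR adjusted p = 0.00791, and Lect2, -0.83, edgeR adjusted p = 0.0317), while Glul and Cyp2e1, the defining ones, did not pass. Of 11 periportal markers 0 passed. The pericentral list was summed at 11399 to 17382 CPM in Chow and 11349 to 15961 CPM in TM5614, and the periportal list at 7728 to 18811 and 14754 to 19168 CPM. The part of zonation in the change of the carboxylesterases was not tested.

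**Figure D5:**
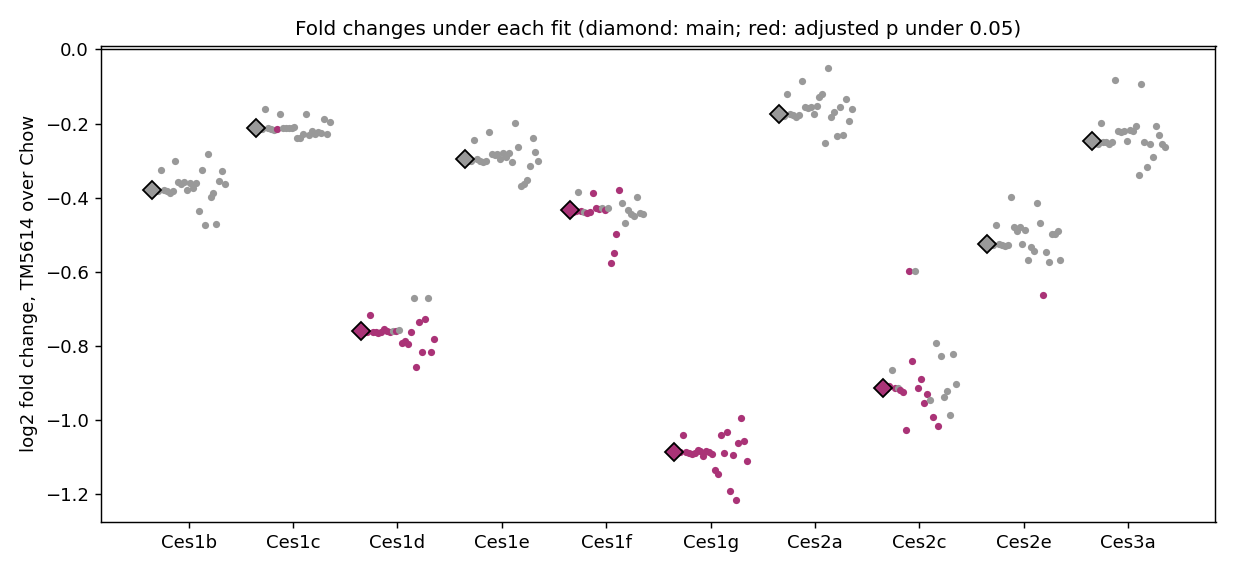
log2 fold change of each carboxylesterase under the fit used throughout (diamonds) and 25 alternatives (circles); red marks an adjusted p under 0.05. Every point lies below 0; Ces1g is red in all fits and Ces1d in most, while Ces1f and Ces2c change between red and grey.

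Across the 25 alternative fits the ranking of evidence among members was uneven. Ces1g passed in 25, Ces1d in 21, Ces2c in 14 and Ces1f in 13. Ces1c and Ces2e passed in 1 each, and Ces1b, Ces1e, Ces2a and Ces3a in 0.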

How the data were processed

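Poly(A) RNA of 10 mouse livers (5 Chow, 5 TM5614, grouped by the labels) was sequenced as 75-base single-end reads, aligned with STAR to mm10 and analysed with DESeq2 in the RNA Express application by the authors. The submitters' processing notes also name HOMER. Tool versions, the annotation, strand use and the treatment of reads with several matches are not given in the sources used here, and any of these can move counts between near-identical paralogs. The authors deposited raw counts per gene symbol (6398335 to 10874955 per library), FPKM, regularised log values and a table of their own comparison (mean count, fold change, error, statistic, p-values). The deposited counts were used for tests and the deposited FPKM for levels between genes, while the other 2 tables were not used. Counting error is small beside the spread between mice except for Ces2c, and the stated interval covers counting error only.

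Counts were filtered with filterByExpr, scaled by TMM and tested with the edgeR 4.0.16 quasi-likelihood test (two-sided, no covariate, Benjamini-Hochberg over 11092 genes, threshold 0.05) in R 4.3.3. Alternatives were DESeq2 1.42.0 and limma 3.58.1 (voom on counts with sample quality weights, trend on log2(FPKM + 1) or log2(FPKM + 0.1)). Other scalings, filters, thresholds, a GC and length offset, a replicate block and leaving out each library were further alternatives. The edgeR, DESeq2 and limma steps were tested on simulated data. CPM uses the TMM-scaled library sizes. Ratios within libraries were compared by an exact permutation test over 252 splits. Gene coordinates, transcripts and coding sequences came from GENCODE (GRCm38), promoters from RefSeq (GRCm38.p6), and coding sequences were aligned with Biopython 1.88. No 2 libraries agreed within sampling noise (smallest chi-square per degree of freedom 7.50 over 20 pairs within groups). Ces1h is not analysed here. The members and all gene lists were chosen with earlier results of these data known. All members are named. Of each other list, genes past the threshold are named, at most 6 per direction by adjusted p, plus Gusb, Nr1i2, Nr1i3 and Ppara, and all other carboxylesterase genes are named.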

Additional observations from a re-analysis of the deposited data

Results flagged for a closer look

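Over 56 groups of 5 libraries examined by Dixon's test, about 2.8 would be flagged by chance, and 2 were. Ces1f in TM5614 replicate 3 stood at 326 CPM, below the other 4 TM5614 libraries at 370 to 373 CPM. Ces2g in Chow replicate 4 stood at 23.4 CPM, below the other 4 Chow libraries at 36.3 to 40.8 CPM. TM5614 replicate 3 was also the lowest TM5614 library for 5 other members.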

How the results depend on the processing

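The estimates of all 10 carboxylesterases kept their sign in all 25 alternatives. The number of members lower, 4 of 10, was also 4 under DESeq2-type (RLE), upper-quartile and member-free TMM factors, a minimum of 10 counts in every library, limma-voom, limma on log2(FPKM + 1) and log2(FPKM + 0.1), robust dispersion and the GC and length offset, and 5 under DESeq2. It was 2 with library totals alone, 2 with no filter, 1 by limma on log2(FPKM + 1) with no filter, 1 at an adjusted p of 0.01 and 0 when tested against a fold change of 1.5. Leaving out 1 library gave 1 to 4 members. Fewer libraries and more genes tested enter some of these fits; otherwise the cause was not tested.

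Genes changed numbered 499 (307 lower), with 907 (567 lower) by DESeq2, 1386 (804 lower) by limma-voom, 326 by limma on FPKM with no filter, 184 (112 lower) at an adjusted p of 0.01, 78 (42 lower) against a fold of 1.5, and 235 to 1031 (146 to 626 lower) leaving out 1 library, the most without Chow replicate 2. The number of members at their FPKM rank was 8 of 10 with counts per kilobase of exons, and 8 to 10 leaving out 1 library.

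Whether the replicate numbers of the labels pair the samples was not tested. Deviations of same-numbered libraries correlated at 0.032 to 0.318, over 0.1 in 3 of 5 pairs, and 1 of 5 numbers was its own best partner. With the replicate block 2 members (Ces1g and Ces2c) and 555 genes were called, with an adjusted p of 0.0520 for Ces1d and 0.0701 for Ces1f, and with the block and the GC and length offset 4 members and 778 genes.

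Signs turned in 3 genes near 0. Ces3b (-0.04) was 0.0027 with library totals alone, 0.0031 by limma-voom and -0.118 to 0.0112 leaving out 1 library. Ppara (-0.03) was 0.0128 with library totals alone and -0.0952 to 0.0494 leaving out 1 library. Gusb (0.04) was -0.0153 to 0.0832 leaving out 1 library. Depth limits Ces2c most.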
